A study of Mus musculus with 24 samples.

Results

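The genes described here are the 10 genes of MHC class II presentation, namely the classical chains H2-Aa, H2-Ab1 and H2-Eb1, the peptide editor H2-DM (H2-DMa, H2-DMb1, H2-DMb2), its inhibitor H2-O (H2-Oa, H2-Ob), the invariant chain Cd74 and the transactivator Ciita. They were taken by symbol from the expression tables, and all 10 of 10 were found among the 21671 genes listed. RNA-Seq was performed on splenic cells of C57/Bl6 mice of 8 weeks, either wild-type (Trp53+/+) or carrying the knockout alleles of the p53 gene (Trp53-/-), collected 4 h after 7 Gy of whole-body ionizing radiation (IR) or without it (mock, unstressed). The spleen was split with beads against B220, the B cell form of CD45, into retained B cells and the flow-through, called non-B cells. Each of the 4 Trp53+/+ groups held 4 samples and each of the 4 Trp53-/- groups held 2, making 24 samples in all. The knockout was constitutive, so every cell of a Trp53-/- spleen carried the knockout alleles, and the non-B fraction was a mixture of T cells and all other remaining cells.

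MHC class II molecules display peptides from endosomes to CD4+ T cells and are made by B cells, dendritic cells and macrophages. The alpha and beta chains (H2-Aa with H2-Ab1 for I-A, H2-Eb1 for the beta chain of I-E) assemble on the invariant chain, whose last fragment, CLIP, is removed by H2-DM so that other peptides can bind. H2-O, found mostly in B cells, binds H2-DM and holds it back. Ciita is the co-activator that is recruited to class II promoters by factors bound to their conserved X and Y boxes. The mice are of a strain background in which the I-E alpha chain gene is defective, so that H2-Eb1 has no classical partner, and no H2-Ea row was used here.

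In the mm9 build 8 of the 10 genes lie within 224 kb of chromosome 17, in the order H2-Oa (chr17:34229285-34232179, plus strand), H2-DMa, H2-DMb2, H2-DMb1, H2-Ob (chr17:34375848-34390850, plus strand), H2-Ab1 (chr17:34400154-34406363, plus strand), H2-Aa (chr17:34406276-34424772, minus strand) and H2-Eb1 (chr17:34442828-34453144, plus strand). Ciita lies at chr16:10480237-10527657 on the plus strand, and Cd74 lies outside both regions. The annotated ends of H2-Ab1 and H2-Aa overlap by 88 bases, and without strand information reads from that overlap cannot be told apart. H2-DMb1 and H2-DMb2 are near-identical copies. Of the 50-base stretches in their annotated coding transcripts, 27.1% of those of H2-DMb1 and 24.6% of those of H2-DMb2 were also in the other gene, so the split of reads between them is uncertain.

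Some of the promoters share short stretches of sequence. RefSeq promoter windows in GRCm38.p6, reaching from 250 bases before to 50 after the annotated start, were at hand for 7 of the 10 genes (not for H2-Ab1, Cd74 and Ciita), and for the related chain gene H2-Eb2. Capitals mark GCAAC, part of the X box, and GATTGG, the Y box, which is CCAAT read on the other strand. These letters and their spacing were chosen after the windows had been looked at. In the 4 members with both, GATTGG followed GCAAC after 24 to 27 bases, and in H2-Eb2 after 26.
H2-Oa: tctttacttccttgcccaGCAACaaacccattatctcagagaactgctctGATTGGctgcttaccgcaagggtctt
H2-Ob: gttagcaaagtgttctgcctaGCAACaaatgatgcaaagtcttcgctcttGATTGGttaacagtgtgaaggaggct
H2-Aa: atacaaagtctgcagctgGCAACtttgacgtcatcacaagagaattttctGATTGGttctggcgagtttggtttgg
H2-Eb1: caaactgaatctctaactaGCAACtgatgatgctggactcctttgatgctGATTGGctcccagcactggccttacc
H2-Eb2: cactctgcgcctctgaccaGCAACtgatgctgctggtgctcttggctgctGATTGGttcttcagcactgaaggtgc
H2-DMb1: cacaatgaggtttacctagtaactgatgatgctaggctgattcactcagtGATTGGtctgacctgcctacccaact
H2-DMb2: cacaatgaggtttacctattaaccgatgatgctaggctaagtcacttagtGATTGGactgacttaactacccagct
These stretches of 76 bases are written 5′ to 3′ along each gene and lie at chr17:34092285-34092360 for H2-Oa, chr17:34238797-34238872 for H2-Ob, chr17:34287847-34287922 (minus strand) for H2-Aa, chr17:34305757-34305832 for H2-Eb1, chr17:34325524-34325599 for H2-Eb2, chr17:34153079-34153154 for H2-DMb1 and chr17:34145108-34145183 for H2-DMb2. On either strand GCAAC was in 35.1% and GATTGG in 16.1% of 32544 distinct windows of 300 bases. The ordered pair, GATTGG after GCAAC with 20 to 30 bases between, was in 0.206% of them. H2-DMb1 and H2-DMb2 had GATTGG without GCAAC, and neither of the 2 windows of H2-DMa had the pair. A match is a description of letters and not evidence of a bound factor.

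The levels below are RPKM, reads per kilobase of exon and per M reads on exons (M for mega). Duplicate reads had been reduced to a single read before counting, which bounds the highest values. From the spacing of the lowest RPKM values the depth of each sample was estimated at 4.74 to 10.97 M reads on exons (median 8.75), with 58.2 to 70.5% of low values within 0.1 of a whole read, so these depths are approximate. With them, none of 520104 values exceeded 2 reads per base of exon, and the highest was 1.92. One kept read per start position and strand gives the same limit of 2. Cd74 reached 1.85 reads per base, H2-Ab1 1.52, H2-Aa 1.22 and H2-Eb1 and H2-Ob 1.12. Near this limit RPKM falls as depth rises. For this reason the values of several comparisons are also given with a correction for random duplicate loss, added after the values had been seen. The p53 target Cdkn1a was at 0.9 to 1.4 RPKM in unstressed Trp53+/+ B cells and 82.3 to 97.8 after IR, against 0.6 to 0.7 in all 4 Trp53-/- B samples. Reads on Trp53 remained in Trp53-/- cells. They were at 21.6 and 21.7 against 44.8 to 47.9 RPKM in unstressed B cells, but at 35.5 ± 1.29 (n = 2) against 36.9 ± 1.64 (n = 4) in irradiated non-B cells, where the ranges of the genotypes overlapped. Olfactory and vomeronasal receptor genes, which spleen should not express, had a value above 0 for 5.4 to 13.1% of 1440 genes in the unstressed and the Trp53-/- samples. After IR the share was 7.0 to 47.3% in Trp53+/+ B samples, and in the matching non-B samples it was 8.6 to 51.3%.

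**Figure D1:**
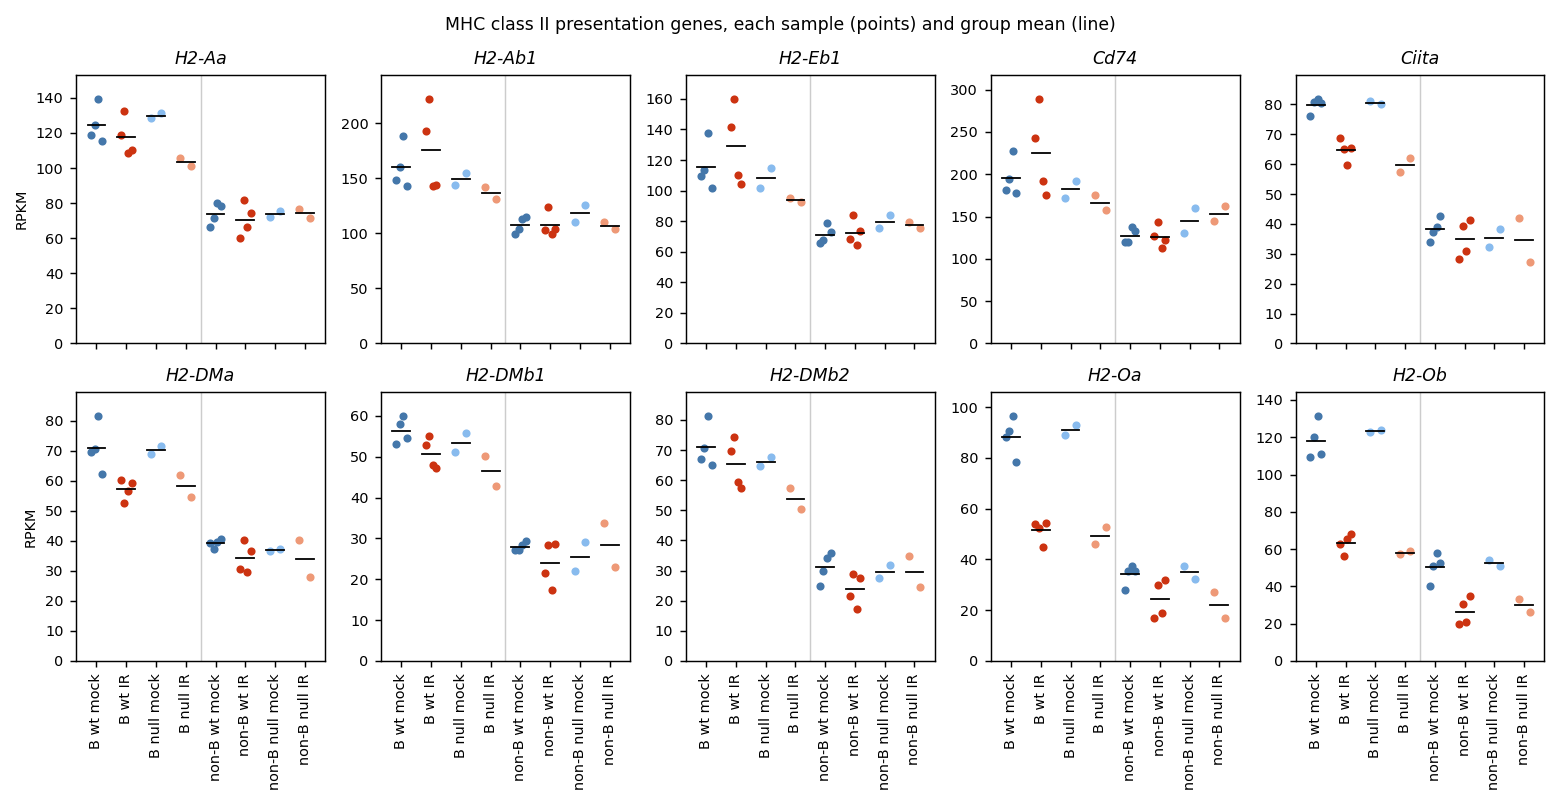
RPKM (y axes, from 0) of the 10 MHC class II presentation genes in each of 24 samples (points) with the mean of each group (line), B cells left and non-B cells right of the grey line, wt for Trp53+/+ and null for Trp53-/-. H2-Oa and H2-Ob drop from mock to IR in B cells of both genotypes, and every gene is lower in non-B than in B cells of Trp53+/+ mice.

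In unstressed Trp53+/+ B cells Cd74 was the highest of the 10 genes, at 195.4 ± 23.0 RPKM (SD, n = 4), followed by H2-Ab1 at 160.2 ± 20.1. H2-Aa (124.6 ± 10.6), H2-Ob (117.9 ± 9.98) and H2-Eb1 (115.5 ± 15.5) followed, with ranges that overlapped. H2-Oa stood at 88.4 ± 7.52, Ciita at 79.9 ± 2.47, H2-DMb2 at 71.0 ± 7.18, H2-DMa at 70.9 ± 7.95 and H2-DMb1 at 56.4 ± 3.06. Taken gene by gene, H2-Oa and H2-Ob had more transcript per length than each of the 3 H2-DM genes. As deposited, the H2-DMb1 and H2-DMb2 values added together exceeded both. After the correction for duplicate loss the mean of Cd74 was 476.7 ± 61.3 and that of H2-Ab1 284.3 ± 36.6, while H2-DMb1 moved only to 65.1 ± 2.95. Corrected, H2-Ob at 168.4 exceeded H2-DMb1 and H2-DMb2 (85.5) added together, so that order differed with the correction.

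The first comparison asked what IR changed in B cells. H2-Oa and H2-Ob, the chains of the inhibitor, fell in Trp53+/+ B cells to 58% and 54% of their unstressed level on the fitted scale. They were 2 of the 10 genes called, both lower, where 24.7% of all 13821 genes tested were called and 12.2% were called lower. A gene was called at an adjusted p under 0.05 (limma across all genes, Benjamini-Hochberg) together with a log2 difference beyond 0.58 in either direction. The median difference of the 10 genes was -0.14 on the log2 scale, against 0.01 over all genes tested.

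H2-Oa, the alpha chain of the inhibitor, was at 88.3, 90.6, 96.4 and 78.4 RPKM in the 4 unstressed Trp53+/+ B samples. After IR it was at 54.0, 52.6, 45.0 and 54.4. Every irradiated sample lay below every unstressed one, and the log2 difference was -0.77 ± 0.08 (SE, limma adjusted p = 6.8e-06). H2-Ob, the beta chain, was at 109.3, 120.1, 131.2 and 111.2 RPKM before and at 62.8, 56.4, 65.2 and 68.2 after IR. The groups were again apart, with a difference of -0.90 ± 0.07 (limma adjusted p = 8.2e-07). Both calls held in each alternative fit, with the difference between -0.71 and -0.83 for H2-Oa and between -0.84 and -0.93 for H2-Ob when single samples were left out. Corrected for duplicate loss the differences were larger, -1.0 ± 0.09 and -1.25 ± 0.08.

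Trp53-/- B cells gave the same 2 calls. H2-Oa was at 89.1 and 92.9 RPKM in unstressed and at 46.0 and 52.7 in irradiated Trp53-/- B cells, a log2 difference of -0.88 ± 0.11 (limma adjusted p = 7.9e-05). H2-Ob was at 123.0 and 124.1 against 57.3 and 59.0, a difference of -1.08 ± 0.10 (limma adjusted p = 8.4e-06). In this genotype 24.3% of 13821 genes were called and 11.2% were called lower. The response of H2-Oa differed between genotypes by 0.10 ± 0.14 and that of H2-Ob by 0.19 ± 0.13 on the log2 scale (Trp53+/+ minus Trp53-/-, adjusted p = 0.65 and 0.34). None of the 10 genes passed this test of the genotype difference in limma, none had an unadjusted p under 0.05, and 18.8% of all genes were called in it.

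**Figure D2:**
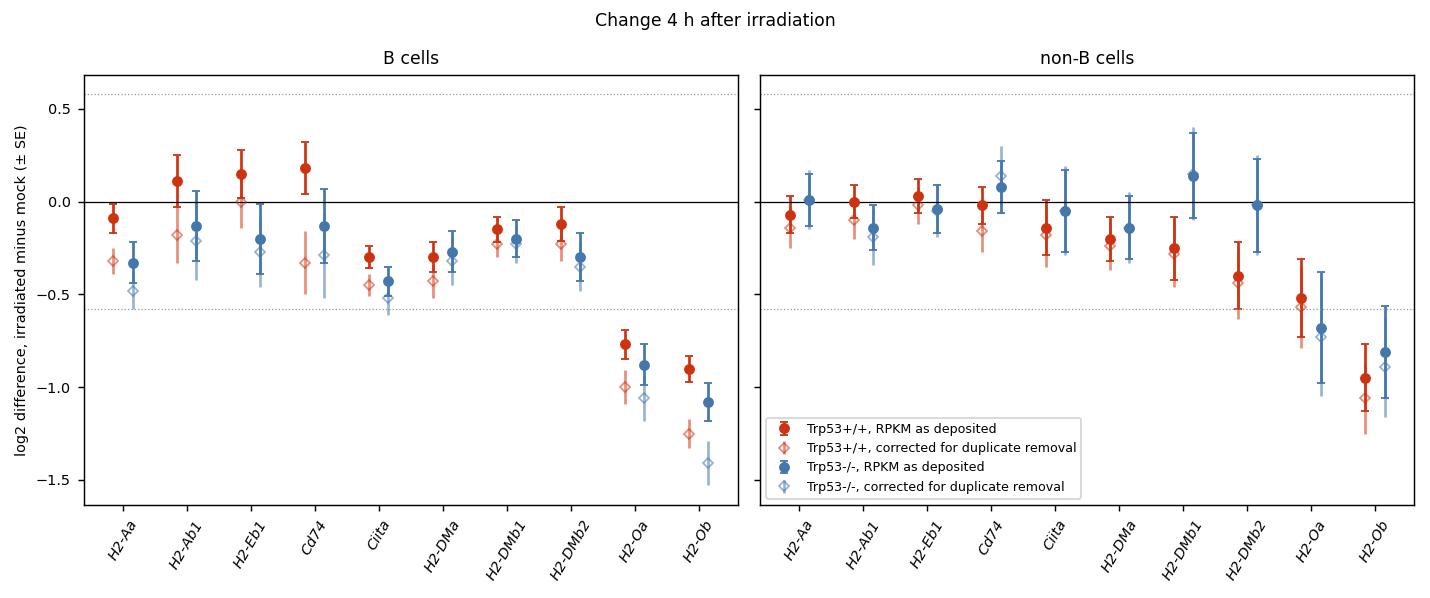
Log2 difference between irradiated and mock samples (y axis, ± SE from limma) for each of the 10 genes in B cells (left) and non-B cells (right), Trp53+/+ red and Trp53-/- blue, with filled circles for RPKM as deposited and open diamonds after the correction for duplicate loss, and dotted lines at 0.58 and -0.58. In B cells H2-Oa and H2-Ob lie below the lower dotted line in both genotypes and the other 8 genes lie above it.

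The transactivator and the peptide editor moved less. Ciita was at 76.2, 80.9, 81.8 and 80.4 RPKM in unstressed and at 68.7, 65.2, 59.7 and 65.4 in irradiated Trp53+/+ B cells. These ranges did not overlap. The difference of -0.30 ± 0.06 had a limma adjusted p of 0.0007 but did not reach the fold required for a call. In Trp53-/- B cells the difference of Ciita was -0.43 ± 0.08 (limma adjusted p = 0.001), again short of that fold. H2-DMa, the alpha chain of the editor, was at 69.5, 70.5, 81.5 and 62.2 RPKM before and at 60.5, 52.5, 56.5 and 59.3 after IR. Here too the groups were apart, with a difference of -0.30 ± 0.08 (limma adjusted p = 0.0075), short of the required fold. The beta chain genes H2-DMb1 and H2-DMb2 differed by -0.15 ± 0.07 and -0.12 ± 0.09 (adjusted p = 0.096 and 0.29), with overlapping ranges. After the correction for duplicate loss Ciita (-0.45), H2-DMa (-0.43) and H2-DMb1 (-0.23) had adjusted p values of 5.5e-05, 0.0015 and 0.015 in limma, and none of them reached the fold for a call.

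The classical chains and the invariant chain did not pass the test in Trp53+/+ B cells. Cd74, which holds the peptide groove closed until CLIP is exchanged, was at 181.0, 195.0, 228.0 and 177.5 RPKM in unstressed and at 242.6, 289.0, 191.7 and 175.8 in irradiated samples. The highest irradiated values came from samples 1 and 2, which had the lowest estimated depths of the series, 6.08 and 4.74 M reads. The difference of Cd74 was 0.18 ± 0.14 as deposited (limma adjusted p = 0.30), -0.33 ± 0.17 after the correction (adjusted p = 0.11) and -0.08 without those 2 samples (adjusted p = 0.57), so no direction is given for it. H2-Ab1 behaved alike, at 193.3, 222.2, 142.8 and 143.7 RPKM after IR against 143.1 to 188.4 before, with a difference of 0.11 ± 0.14 as deposited and -0.18 ± 0.15 corrected. H2-Eb1 differed by 0.15 ± 0.13 as deposited and by 0.00 ± 0.14 corrected.

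H2-Aa, further from the limit than Cd74 and H2-Ab1 but not than H2-Eb1, was at 115.2 to 139.4 RPKM before and 108.8 to 132.3 after IR. Its difference in Trp53+/+ B cells was -0.09 ± 0.08 (adjusted p = 0.37), and -0.32 ± 0.07 after the correction (limma adjusted p = 0.002), which was short of the fold for a call. In Trp53-/- B cells, where the depths of the groups were alike at 8.74 to 9.19 M reads, H2-Aa was at 128.4 and 131.2 RPKM against 105.6 and 101.2 after IR, a difference of -0.33 ± 0.11 (limma adjusted p = 0.03). In these samples all 10 genes had a negative difference, from -0.13 for H2-Ab1 and Cd74 to -1.08 for H2-Ob, and 2 were called.

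**Figure D3:**
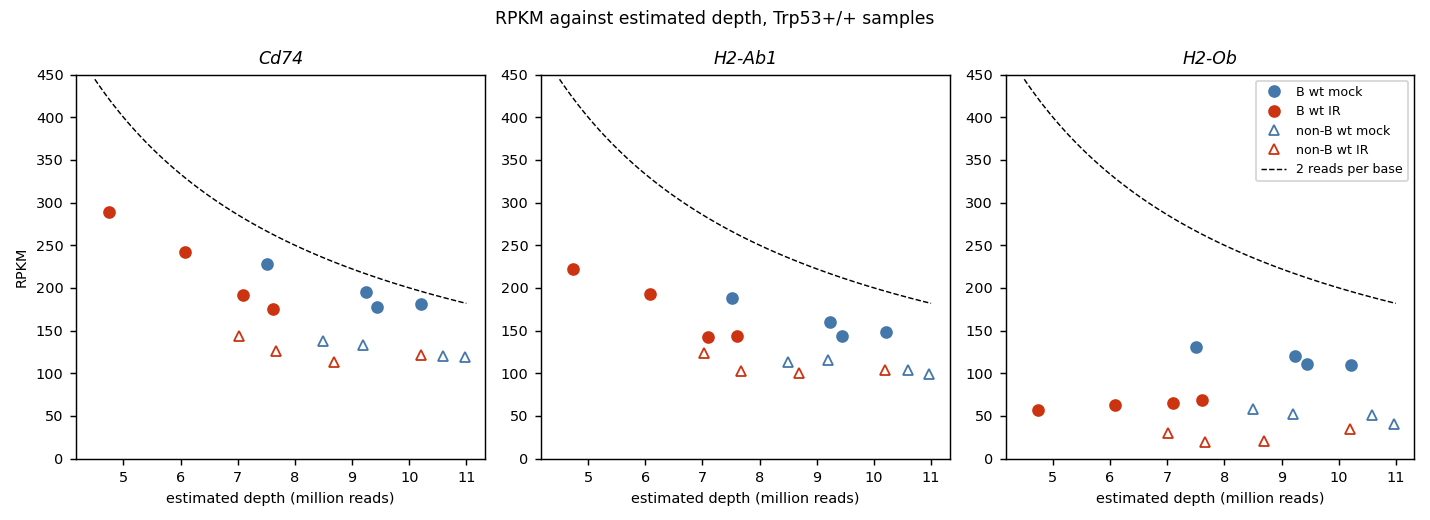
RPKM (y axis) of Cd74, H2-Ab1 and H2-Ob against the estimated depth in M reads on exons (x axis) in the 16 Trp53+/+ samples, circles for B and triangles for non-B cells, blue for mock and red for IR, with the dashed curve at 2 reads per base. Cd74 reaches 289.0 RPKM in the shallowest B sample and lies below the curve in every sample, while H2-Ob in the 4 irradiated B samples stays between 56.4 and 68.2 RPKM.

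Other cell types in the B fraction were looked at through marker lists. The 10 B cell markers summed to 1114 to 1292 RPKM in unstressed and 1018 to 1125 in irradiated Trp53+/+ B cells, and 2 of the 10, Blk and Fcrla, were called lower after IR. The 8 T cell markers summed to 64 to 73 and 43 to 73 RPKM. The 9 measured macrophage markers, of a cell type that also makes class II, summed to 491 to 666 and 396 to 586, against 421 to 492 in unstressed non-B cells, and none of them was at 0. The 8 dendritic cell markers, of another cell type that makes class II, summed to 35 to 49 and 33 to 40 RPKM, with 3 of 8 called lower and 1 higher after IR and a median difference of -0.47. The 8 erythroid markers went from 58 to 115 RPKM down to 29 to 37. The part of these cell types in the class II differences was not tested. In such bulk samples fewer cells of a type and less RNA per cell cannot be told apart.

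In non-B cells H2-Ob was the 1 member called after IR in Trp53+/+ mice, where 9.85% of 14018 genes were called and 4.11% were called lower. H2-Ob was at 40.3, 51.1, 57.8 and 52.7 RPKM in unstressed and at 19.8, 30.4, 20.7 and 34.9 in irradiated Trp53+/+ non-B cells. The groups did not overlap, and the difference was -0.95 ± 0.18 (limma adjusted p = 0.005). H2-Oa was at 28.0, 35.6, 37.4 and 35.4 RPKM against 17, 29.8, 19.0 and 32.0, overlapping ranges with a difference of -0.52 ± 0.21 (adjusted p = 0.10). It was lower after IR in 4 of 4 numbered pairs, and with the replicate block the SE was 0.15 and the limma adjusted p 0.05, which was not a call, also by its fold. Whether samples of the same number form pairs is uncertain. Without irradiated sample 4, H2-Oa also passed, with -0.66 (limma adjusted p = 0.048). The other 8 genes ranged from -0.40 (H2-DMb2) to 0.03 (H2-Eb1) and the median of the 10 was -0.17, against -0.03 over all genes.

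Of the 10 B cell markers 1 was called lower in the same comparison and 9 were not called. They summed to 357 to 571 RPKM in unstressed and 234 to 494 in irradiated Trp53+/+ non-B cells, their median difference was -0.56, and irradiated samples 1 and 3, lowest for H2-Ob, H2-Oa and Ciita, had receptor genes above 0 in 24.7% and 51.3%, but sample 4, the highest of the group for these 3 genes, also had them in 35.8%, against 8.6% in sample 2. The erythroid markers moved further, from 116 to 358 RPKM in sum before to 30 to 94 after IR, with 4 of 8 called lower and a median difference of -2.09, and their part in the result was not tested. With the B cell markers as a covariate the difference of H2-Ob was -0.64 ± 0.14 (limma adjusted p = 0.018) and that of H2-Oa -0.17 ± 0.17 (adjusted p = 0.57). With the receptor gene level as a covariate it was -0.74 ± 0.32 (adjusted p = 0.23) and no member was called.

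In Trp53-/- non-B cells none of the 10 genes was called by limma after IR, with 2 at an unadjusted p under 0.05, where 0.442% of genes were called. H2-Ob was at 54.0 and 50.7 RPKM against 33.3 and 26.4, a difference of -0.81 ± 0.25 (adjusted p = 0.15), and H2-Oa at 37.5 and 32.5 against 27.2 and 17, a difference of -0.68 ± 0.30 (adjusted p = 0.29). Both pairs of groups were apart, but with 2 samples each the errors were wide. The B cell markers summed to 441 and 538 RPKM before and 492 and 670 after IR in this genotype, and with them as a covariate H2-Ob passed at -0.93 ± 0.16 (limma adjusted p = 0.043). The genotype difference of the response was -0.14 ± 0.31 for H2-Ob and 0.17 ± 0.36 for H2-Oa (adjusted p = 0.80 for both), none of the 10 genes passed it or had an unadjusted p under 0.05, and 7.35% of all genes were called.

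Loss of p53 alone was compared in unstressed cells. None of the 10 genes was called by limma in B cells, where the differences (Trp53-/- minus Trp53+/+) ran from -0.10 to 0.07 and 0.0506% of genes were called. In non-B cells none was called either, with differences from -0.14 to 0.18 and 0.0428% of genes called. No member had an unadjusted p under 0.05 in either fraction, and the largest SE was 0.17 in B and 0.26 in non-B cells.

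B and non-B cells were then compared within Trp53+/+ mice. In unstressed cells 9 of the 10 genes were called, all higher in B cells, where 24.6% of 14598 genes were called and 7.38% were called higher. The median difference of the 10 was 0.92 on the log2 scale, against -0.00 over all genes. H2-Oa (1.37 ± 0.16), H2-Ob (1.22 ± 0.15) and H2-DMb2 (1.18 ± 0.15) differed most, and Ciita (1.06 ± 0.10) and H2-DMb1 (1.00 ± 0.12) came next. H2-Aa (0.75 ± 0.10), H2-Eb1 (0.69 ± 0.13) and Cd74 (0.61 ± 0.13) differed less. H2-Ab1, with 99.1 to 115.3 RPKM in non-B and 143.1 to 188.4 in B cells, differed by 0.56 ± 0.13 (limma adjusted p = 0.0025), short of the fold for a call. For each of the 10 genes every B sample lay above every non-B sample of these unstressed Trp53+/+ mice. The same comparison in Trp53-/- mice was not tested. After IR the mean in Trp53-/- non-B cells was 44.8% (H2-Oa) to 92.0% (Cd74) of that in B cells. Cd74 overlapped there, at 175.1 and 158.1 RPKM in B and 144.5 and 162.0 in non-B cells.

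The order within the list differed with the correction for duplicate loss. After the correction all 10 genes were called, Cd74 differed by 1.25 ± 0.15 instead of 0.61 ± 0.13, and H2-Ab1 by 0.88 ± 0.14. The call of Cd74 was lost without unstressed B sample 3 (0.53, adjusted p = 0.0069) or unstressed non-B samples 1 or 2 (0.58 each), all through the fold and not through the p.

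In irradiated Trp53+/+ cells all 10 genes were called higher in B cells, where 35.6% of genes were called and 15.3% were called higher. The differences ran from 0.68 ± 0.13 for H2-Ab1 to 1.46 ± 0.15 for H2-DMb2, with a median of 0.85 against 0.07 over all genes. The call of H2-Ab1 was lost without irradiated B sample 2 (0.56). With quantile normalization 6 of the 10 genes were called, and H2-Ab1 (0.29), Cd74 (0.38), H2-Aa (0.47) and H2-Eb1 (0.51) fell short of the fold. Without irradiated B samples 1 and 2 the count was 7. The difference of the IR response between the cell types was not called by limma for any of the 10 genes, where 28.0% of all genes were called. It ran from -0.26 ± 0.23 for H2-Oa to 0.28 ± 0.21 for H2-DMb2, and none had an unadjusted p under 0.05. These comparisons share their samples with those of the IR response.

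The level left in the non-B fraction varied among the genes. In unstressed Trp53+/+ mice the mean in non-B cells was 38.6% of that in B cells for H2-Oa, 42.8% for H2-Ob, 44.0% for H2-DMb2 and 47.9% for Ciita. It was 67.4% for H2-Ab1, 65.3% for Cd74, 61.6% for H2-Eb1 and 59.4% for H2-Aa. The 10 B cell markers, measured alike, stood at 28.6% (Ebf1) to 55.4% (Cd79b), with a median of 37.6% against 52.5% for the class II genes. Corrected for duplicate loss the medians were 30.5% and 44.5%. Cd74 then stood at 41.9%, below Ciita at 42.7%, so its place among the genes differed with the correction. H2-Ab1 (53.9%), H2-Eb1 (53.5%) and H2-Aa (50.1%) stayed above H2-Oa (33.0%), H2-Ob (34.4%) and H2-DMb2 (39.6%). The non-B fraction also held dendritic cell markers at 105 to 117 RPKM in sum, against 35 to 49 in B cells, and macrophage markers as above. How far these cells, or B cells left in the flow-through, account for the class II level was not tested.

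**Figure D4:**
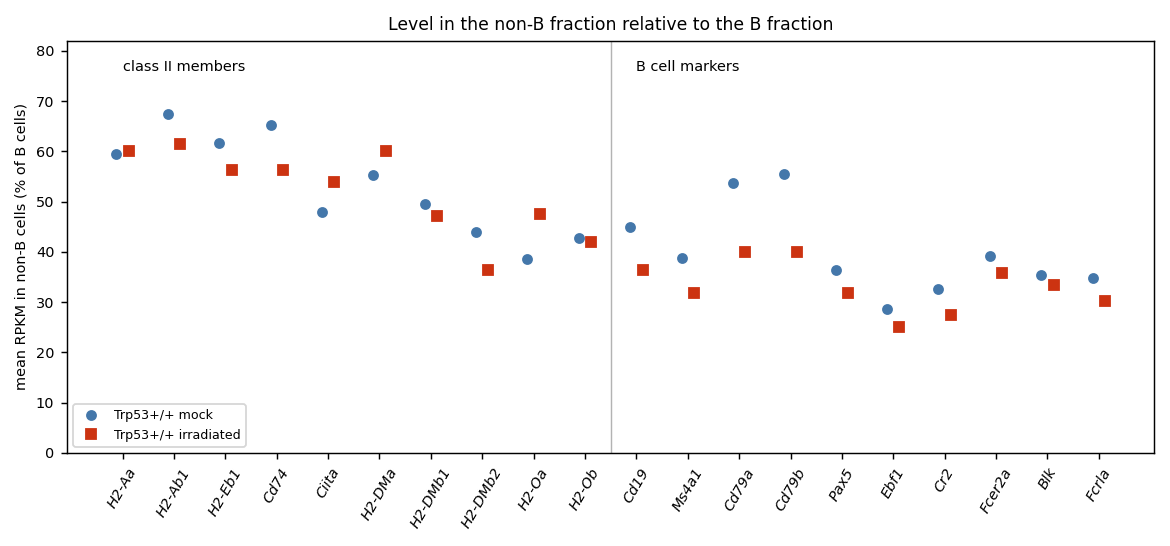
Mean RPKM in Trp53+/+ non-B cells as a percentage of the mean in B cells (y axis, from 0) for the 10 class II genes (left) and the 10 B cell markers (right), blue circles for mock and red squares for IR. H2-Oa (38.6%) and H2-Ob (42.8%) lie nearest to the B cell markers in unstressed mice and H2-Ab1 (67.4%) lies highest.

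Ratios between partner genes are free of library size, though not of the duplicate limit. For 5 ratios in 3 comparisons (15 exact two-sided permutation tests, 4 samples against 4) the smallest possible p is 0.0286, and none passed after adjustment over the 15. No ratio could pass alone at that p, since many of the 15 tests had to reach it together. Not passing is therefore no sign that a ratio stayed the same. H2-Oa to H2-DMa, inhibitor against editor, was 1.27, 1.29, 1.18 and 1.26 in unstressed Trp53+/+ B cells and 0.89, 1.00, 0.80 and 0.92 after IR. The groups were apart, at a log2 difference of -0.47 (exact permutation p = 0.0286, adjusted p = 0.0714). In Trp53-/- B cells the same ratio was 1.29 to 1.30 before and 0.74 to 0.96 after IR. Unstressed non-B cells had a ratio of 0.71 to 0.96, apart from the 1.18 to 1.29 of B cells (log2 difference 0.53, exact permutation p = 0.0286, adjusted p = 0.0714).

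H2-Oa to H2-Ob was 0.65 to 0.70 in unstressed and 0.86 to 0.98 in irradiated Trp53+/+ non-B cells, a log2 difference of 0.44 (exact permutation p = 0.0286, adjusted p = 0.0714). In Trp53+/+ B cells the same ratio overlapped between the groups, at 0.70 to 0.81 and 0.69 to 0.93 (difference 0.12, exact permutation p = 0.343). H2-DMa to the sum of H2-DMb1 and H2-DMb2 was 0.52 to 0.58 in unstressed B and 0.62 to 0.75 in unstressed non-B cells, a difference of -0.26 (exact permutation p = 0.0286, adjusted p = 0.0714). Cd74 to H2-Ab1 stayed between 1.13 and 1.34 in all 16 Trp53+/+ samples. After the correction the difference of that ratio between unstressed B and non-B cells was 0.36 in place of 0.05.

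**Figure D5:**
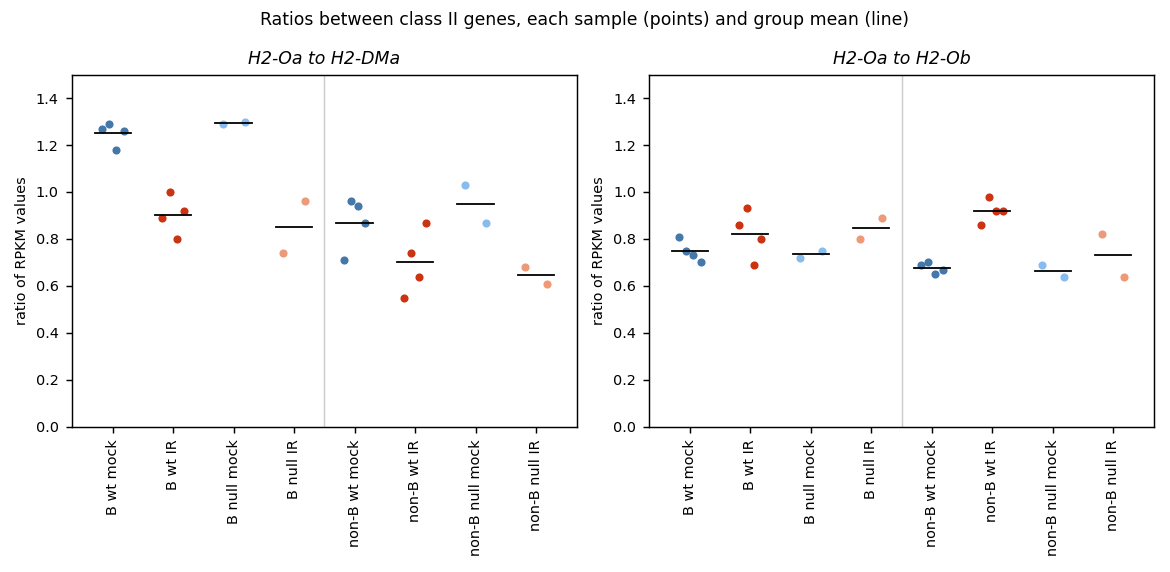
Ratio of RPKM values (y axes, from 0) of H2-Oa to H2-DMa (left) and H2-Oa to H2-Ob (right) in each sample (points) with the group mean (line), labelled as in the plot of the 10 genes by group. H2-Oa to H2-DMa lies at 1.18 to 1.29 in unstressed and 0.80 to 1.00 in irradiated Trp53+/+ B cells.

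The rest of the pathway was read from lists of 31 measured genes. In Trp53+/+ B cells 3 of them rose and 3 fell after IR, and their median was -0.04, where 24.7% of all genes were called and 12.2% were called lower. H2-Eb2, a further beta chain gene next to H2-Eb1, was at 52.4, 48.8, 52.9 and 43.7 RPKM in unstressed and at 21.9, 23.0, 17.9 and 20.8 in irradiated Trp53+/+ B cells, and it fell by 1.23 on the log2 scale (± 0.08, limma adjusted p = 1.5e-07). In Trp53-/- B cells it was at 48.6 ± 1.97 against 35.2 ± 0.559 RPKM (n = 2 each), a difference of -0.46 ± 0.12. The genotype difference of -0.77 ± 0.14 passed (limma adjusted p = 0.0032), unlike that of any of the 10 members. The response of H2-Eb2 also differed between B and non-B cells, by -0.75 ± 0.26 (limma adjusted p = 0.043).

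Of the 13 genes for factors that act on class II promoters or on Ciita, 1 rose in Trp53+/+ B cells, none fell and 12 did not pass. Over all genes 24.7% were called. Nfyb, a subunit of the factor that binds the Y box, rose from 15.8 ± 0.746 to 43.5 ± 4.05 RPKM (n = 4 each), by 1.43 ± 0.07 on the log2 scale (limma adjusted p = 1.2e-08). The genotype difference of its response was 1.21 ± 0.12 (limma adjusted p = 3.5e-05). Of the 13 genes 1 had a called positive and 1 a called negative genotype difference in B cells, where 18.8% of all genes were called. The counts were the same in non-B cells, where 7.35% of all genes were called. Nfyb rose in Trp53+/+ non-B cells by 0.63 ± 0.11 (limma adjusted p = 0.0033).

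None of the 10 genes for endosomal proteases and their helpers was called in Trp53+/+ B cells, with a median of -0.22. In Trp53-/- B cells 2 of the 10 fell, where 24.3% of all genes were called and 11.2% were called lower. These 2 were picked out here after their values were seen. They were the cathepsins Ctsl (-0.76 ± 0.25) and Ctsh (-0.59 ± 0.12), for which Trp53+/+ B cells gave -0.52 ± 0.18 and -0.35 ± 0.08. The genotype difference of the response was called for none of these protease and helper genes. In Trp53+/+ mice the difference of the response between B and non-B cells was called for 5 of the 10. All 5 had the lower response in B cells, the median of the 10 was -0.36, and 28.0% of all genes were called.

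Among the 7 measured genes of surface turnover and costimulation 2 rose and 2 fell in Trp53+/+ B cells, against the 24.7% of all genes called. Cd80, a ligand of CD28, rose from 6.79 ± 1.05 to 67.5 ± 3.71 RPKM, by 3.23 ± 0.11 on the log2 scale, and by 2.00 ± 0.12 in non-B cells (limma adjusted p = 3.7e-10 and 7.9e-07). Mif, a ligand of surface CD74, rose from 34.2 ± 4.08 to 67.9 ± 1.99 RPKM. March1, the ubiquitin ligase that takes class II off the surface, fell from 69.3 ± 4.14 to 45.5 ± 3.00 RPKM in Trp53+/+ B cells and from 70.9 ± 0.869 to 40.5 ± 1.95 in Trp53-/- B cells (log2 differences -0.60 ± 0.06 and -0.80 ± 0.09). Its relative March8, at 6.39 ± 0.977 RPKM, fell to 3.39 ± 0.392.

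Between unstressed B and non-B cells 10 of the 31 genes were called higher in B cells and 1 lower, where 24.6% of all genes were called and 7.38% were called higher. H2-Eb2 (1.72 ± 0.19), the CD154 receptor Cd40 (1.38 ± 0.13), the factor Irf4 (1.25 ± 0.12) and the endopeptidase Lgmn (1.20 ± 0.11) differed most. March8 was lower in B cells (-1.12 ± 0.33), with overlapping ranges. Rfx5, a subunit of the factor on the X box and named here after its values were seen, was at 46.5 ± 1.57 against 23.9 ± 2.15 RPKM.

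The genes whose pattern was most like that of the 10 members were sought over 24 samples by Pearson's r with the mean of the centred and scaled members. They were Ebf1, Pou2af1, Snx9, Plekha2 and Blnk, with r from 0.968 to 0.974 among 14688 genes. The 24 samples form a B and a non-B set, and within the 12 B samples the r of these 5 genes was 0.73 to 0.96. Within the 12 non-B samples Mef2c, Fcrla, Siglecg, Blk and Ebf1 came first (r from 0.906 to 0.935), of which Fcrla, Blk and Ebf1 stand in the list of B cell markers. For Ciita alone the first 5 were Snx9, Bcl11a, Ccr6, Ebf1 and Cd38, with r from 0.965 to 0.976 over 24 samples. Among the members themselves, r with Ciita ran from 0.75 for Cd74, 0.83 for H2-Ab1 and 0.84 for H2-Eb1 to 0.97 for H2-Aa, H2-DMa and H2-DMb1. The samples share treatment, fraction and depth, and these r are descriptions.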

How the data were processed

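RNA of 24 samples was depleted of rRNA and measured by RNA-Seq. The authors aligned reads to mm9 with TopHat (2.0.6 in the methods, TopHat2 2.0.8 in the submitters' processing notes), removed duplicates down to a single read, counted genes with featureCounts 1.4.5 and deposited RPKM, per M (mega) reads on exons. Their tests on counts were not used here. The 10 genes and the lists were chosen with earlier results of these data known.

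RPKM values were analysed as log2(RPKM + 0.5) with limma 3.58.1 (R 4.3.3, trend), in fits of 12 B samples, 12 non-B samples and 16 Trp53+/+ samples, over genes above RPKM 1 in at least 1 Trp53+/+ sample. Differences on this scale understate those of low genes. A call needed an adjusted p under 0.05 and a log2 difference beyond 0.58, or the p alone for differences of responses. The script was tested on simulated data. Ratios used exact permutation tests (scipy 1.17.1). Replicates are separate samples, and p-values measure the spread between them.

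The correction for duplicate loss took reads per base from RPKM and the estimated depth, for every gene, and assumed random loss under a limit of 2. Gene lengths in GENCODE were used only to estimate the depth, and covered 91.1% of genes. Whether the limit was set per read or per fragment was not settled.

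Same-numbered unstressed and irradiated Trp53+/+ non-B samples deviated together (r from 0.21 to 0.30 in 4 pairs). Only 2 of the 4 were most alike to the sample of their own number, so this pairing is uncertain. In B cells r was 0.01 to 0.11, again with 2 of 4 most alike to their own number, and the numbers were not taken as pairs. B and non-B cells were split from the same spleens, but the main fits took the fractions as independent. Between same-numbered Trp53+/+ B and non-B samples r was -0.15 to 0.41 unstressed and -0.07 to 0.29 after IR. Of 4 pairs, 1 and 2 were most alike to their own number. No 2 samples shared over 2.86% of values.

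All 10 members were named. From the other pathway lists up to 4 called genes per direction with the largest difference were named in each Trp53+/+ comparison of IR and of unstressed fractions, with the 5 genes most alike in pattern. Alternatives varied the pseudocount, filter, scaling, replicate block, covariates and samples.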

Additional observations from a re-analysis of the deposited data

How the results depend on the processing

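In Trp53+/+ and Trp53-/- B cells, 2 of the 10 genes were called after IR in every alternative run, H2-Oa and H2-Ob. The count in irradiated Trp53+/+ non-B cells was 1 and became 0 with the receptor gene covariate, and ranged from 1 to 2 when single samples were left out. In Trp53-/- non-B cells 0 became 1 with the B cell marker covariate. The count of genes higher in irradiated B than non-B cells was 10 and became 6 with quantile normalization, 7 without the 2 shallowest samples and 9 to 10 with single samples left out. In unstressed cells the 9 became 7 to 10. The cause was not tested. The replicate block gave the same counts, 2 in Trp53+/+ B and 1 in Trp53+/+ non-B cells, and changed no member's call. The unstressed genotype comparison could not be fitted with the block. Same-numbered Trp53-/- non-B samples deviated in opposite directions, and over all genes their IR response gave 62 calls, 2 with the block and 108 with the numbers crossed (chosen after seeing the data), and the genotype difference of the response 1031, 610 and 1236, with 0 of the 10 genes each time. Of 1968 uncalled differences of the 10 genes in alternatives 134 had the other sign, and no called one did. Over all genes, quantile normalization turned 1077 higher and 2510 lower calls in unstressed B against non-B cells into 1880 and 1830, 2233 and 2961 in irradiated cells into 3109 and 2517, and 27 and 35 after IR in Trp53-/- non-B cells into 15 and 9. Median-ratio scaling turned 1125 and 1469 for the genotype difference in B cells into 1361 and 943. Leaving out samples or pairing them makes an adjusted ratio test void, since the smallest p is then 0.0571 or 0.125. Depth limits the genes near the limit from duplicate removal, Cd74 and H2-Ab1 among them.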
